A study of Mus musculus with 12 samples.

Results

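The nuclear genes of mitochondrial complexes II, III, IV and V, together with cytochrome c, were followed in cones sorted from degenerated mouse retinas. Members were taken by 13 symbol prefixes (Sdha, Sdhb, Sdhc, Sdhd, Uqcr, Cyc1, Cycs, Cox4, Cox5, Cox6, Cox7, Cox8 and Atp5) among probes that name 1 gene, each gene being read by its brightest probe. This gave 52 of 19902 genes, with 8 in complex II, 9 in complex III, 1 for cytochrome c, 17 in complex IV and 17 in complex V. The prefixes also take in 4 assembly factors of complex II (Sdhaf1 to Sdhaf4), which are not subunits. Cox7c was named only by probes with several genes and is not a member.

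All 12 samples came from C3H/HeNCrl mice with the Pde6b rd1 mutation, in which rods die and cones then lose their outer segments. Each mouse received an adeno-associated virus under the retina at postnatal day 21 to 28, in which the mouse cone arrestin-3 promoter (mCAR) drove a fluorescent protein. The control construct encoded EGFP and was measured in 4 arrays at 110 days and 4 arrays at 220 days of age, each from 500 sorted cells. The other construct encoded eNpHR-EYFP, in which the chloride pump halorhodopsin, driven by light, carries a yellow fluorescent tag (the light sensor of the labels), and was measured in 4 arrays at 165 days, each from 300 sorted cells. Every group therefore shared the mutation, the virus and the promoter, and there were no wild-type and no uninjected animals among the samples. The arrays are labelled as biological replicates. Construct, number of sorted cells and any non-linear course of age cannot be told apart.

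The respiratory chain moves electrons through large protein complexes in the inner mitochondrial membrane and uses the energy to pump protons. Complex II (succinate dehydrogenase) feeds electrons from the citric acid cycle to ubiquinone, complex III passes them to cytochrome c, complex IV (cytochrome c oxidase) hands them to oxygen, and complex V (ATP synthase) lets the protons flow back to make ATP. Photoreceptors pack their inner segments with mitochondria. Some subunits of complexes III, IV and V are encoded by mitochondrial DNA, which the symbol prefixes do not cover. The complex II subunits are all encoded in the nucleus.

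Values are log2 intensities of the deposited table, in which the EGFP columns were first realigned to the probe identifiers. Of the 52 members, 35 lay on lines that had to be moved and 17 stood in place. The brightest part of the scale differed between constructs, with a 95th percentile of intensity of 114.7 to 134.9 for EGFP and 173.2 to 186 for eNpHR-EYFP, while the array medians lay between 6.6 and 7.1. Most members are bright, so each comparison is given on the deposited scale and after quantile normalization, which gives all arrays the same distribution. The cone gene Arr3 stood at 4.58, 8.92, 9.64 and 5.29 on the 110-day EGFP arrays (replicates 1 to 4), at 6.72, 8.16, 8.42 and 8.40 on the 220-day EGFP arrays and at 9.41, 9.56, 10.77 and 10.85 on the eNpHR-EYFP arrays. Replicates 1 and 4 at 110 days and replicate 1 at 220 days had the lowest Arr3 of the EGFP arrays and are called the 3 low-Arr3 EGFP arrays. The cone transducin gene Gnat2 was at 7.64 or above on every array, and the cone opsin gene Opn1mw at 6.02 or above. In sorted bulk samples, fewer cells of a type and less RNA per cell cannot be told apart. The number of arrays limits the precision of every value.

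Promoters of nuclear respiratory genes are known for binding sites of NRF1 and of the ETS factor GABP, so the RefSeq promoter windows of the GRCm38.p6 assembly (250 bases before to 50 after the start) were searched for both, on both strands. The NRF1 letters were GCGCATGC (reverse GCATGCGC) and the ETS letters CCGGAAG (reverse CTTCCGG). Of the members, 40 had a window. NRF1 letters stood in 8 of these (20%), against 3.05% of all 27025 genes of the table and 4.29% of the 15538 that were also on the array. ETS letters stood in 16 (40%), against 9.93% and 13.6%. At least 1 of the 2 motifs was found in 19 members and both in 5. These shares do not allow for base composition, and a match is a description of letters and not a binding site. The last 150 bases before the start follow for 4 members with NRF1 letters and 2 with ETS letters, chosen to show the motifs in 1 gene of complex II, 1 of complex III, cytochrome c and 3 of complex V. Capitals mark the matched letters.
Sdhb (chr4:140961121-140961270, plus strand): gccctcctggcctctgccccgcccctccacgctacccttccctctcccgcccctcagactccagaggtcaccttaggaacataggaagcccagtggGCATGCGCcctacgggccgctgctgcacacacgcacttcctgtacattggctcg
Cycs (chr6:50566570-50566719, minus strand): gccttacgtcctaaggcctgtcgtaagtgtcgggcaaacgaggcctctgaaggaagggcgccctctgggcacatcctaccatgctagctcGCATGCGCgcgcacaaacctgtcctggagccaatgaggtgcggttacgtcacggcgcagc
Atp5k (chr5:108434400-108434549, minus strand): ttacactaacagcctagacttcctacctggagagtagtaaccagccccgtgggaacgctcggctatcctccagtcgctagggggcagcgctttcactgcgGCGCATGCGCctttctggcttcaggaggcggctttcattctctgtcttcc
Atp5g2 (chr15:102671048-102671197, minus strand): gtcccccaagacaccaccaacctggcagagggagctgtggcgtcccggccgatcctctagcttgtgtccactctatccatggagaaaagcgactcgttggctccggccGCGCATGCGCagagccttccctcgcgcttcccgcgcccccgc
Uqcrh (chr4:116075071-116075220, minus strand): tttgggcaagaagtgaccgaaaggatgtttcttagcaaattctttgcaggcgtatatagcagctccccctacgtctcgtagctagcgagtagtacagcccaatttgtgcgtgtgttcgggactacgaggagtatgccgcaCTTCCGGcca
Atp5j (chr16:84834977-84835126, minus strand): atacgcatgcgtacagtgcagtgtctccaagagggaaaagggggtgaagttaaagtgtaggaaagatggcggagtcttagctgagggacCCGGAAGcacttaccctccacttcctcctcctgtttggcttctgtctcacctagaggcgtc
In Atp5k and Atp5g2 the forward and reverse NRF1 letters overlap in 1 run of capitals. The first matched base lies 54 bases before the start in Sdhb, 60 in Cycs, 50 in Atp5k and 42 in Atp5g2. The ETS letters begin 10 bases before the start in Uqcrh and 61 in Atp5j. Letters for YY1 (AAGATGG) were found in 3 of 40 members (7.5%, against 7.28% of all genes), those for the estrogen-related receptors (CAAGGTCA) in 3 (7.5%, against 1.76%) and those for the photoreceptor factor Crx (TAATCC) in 3 (7.5%, against 8.14%).

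The main comparison asked how the members differed between eNpHR-EYFP cones and the mean of both EGFP ages. On the deposited scale 40 of the 52 members were higher in eNpHR-EYFP and 0 were lower. Calls were made by limma with Benjamini-Hochberg adjustment over all 34615 probes tested (threshold 0.05). The background of these calls is high, since 23.0% of all genes were higher and 10.1% lower. At an unadjusted limma p under 0.05, in either direction, there were 43 of 52 members and 8936 of 19902 genes. The median log2 difference of the members was 0.59, against 0.07 over all genes. In 36 members all 4 eNpHR-EYFP arrays lay above all 8 EGFP arrays, which was so for 14.2% of all genes. After quantile normalization 23 members were higher and 1 was lower, against 16.1% and 12.4% of all genes, with a median of 0.25 against 0.02. All 4 eNpHR-EYFP arrays then lay above all EGFP arrays in 16 members, against 9.90% of all genes. The 23 were all among the 40.

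**Figure D1:**
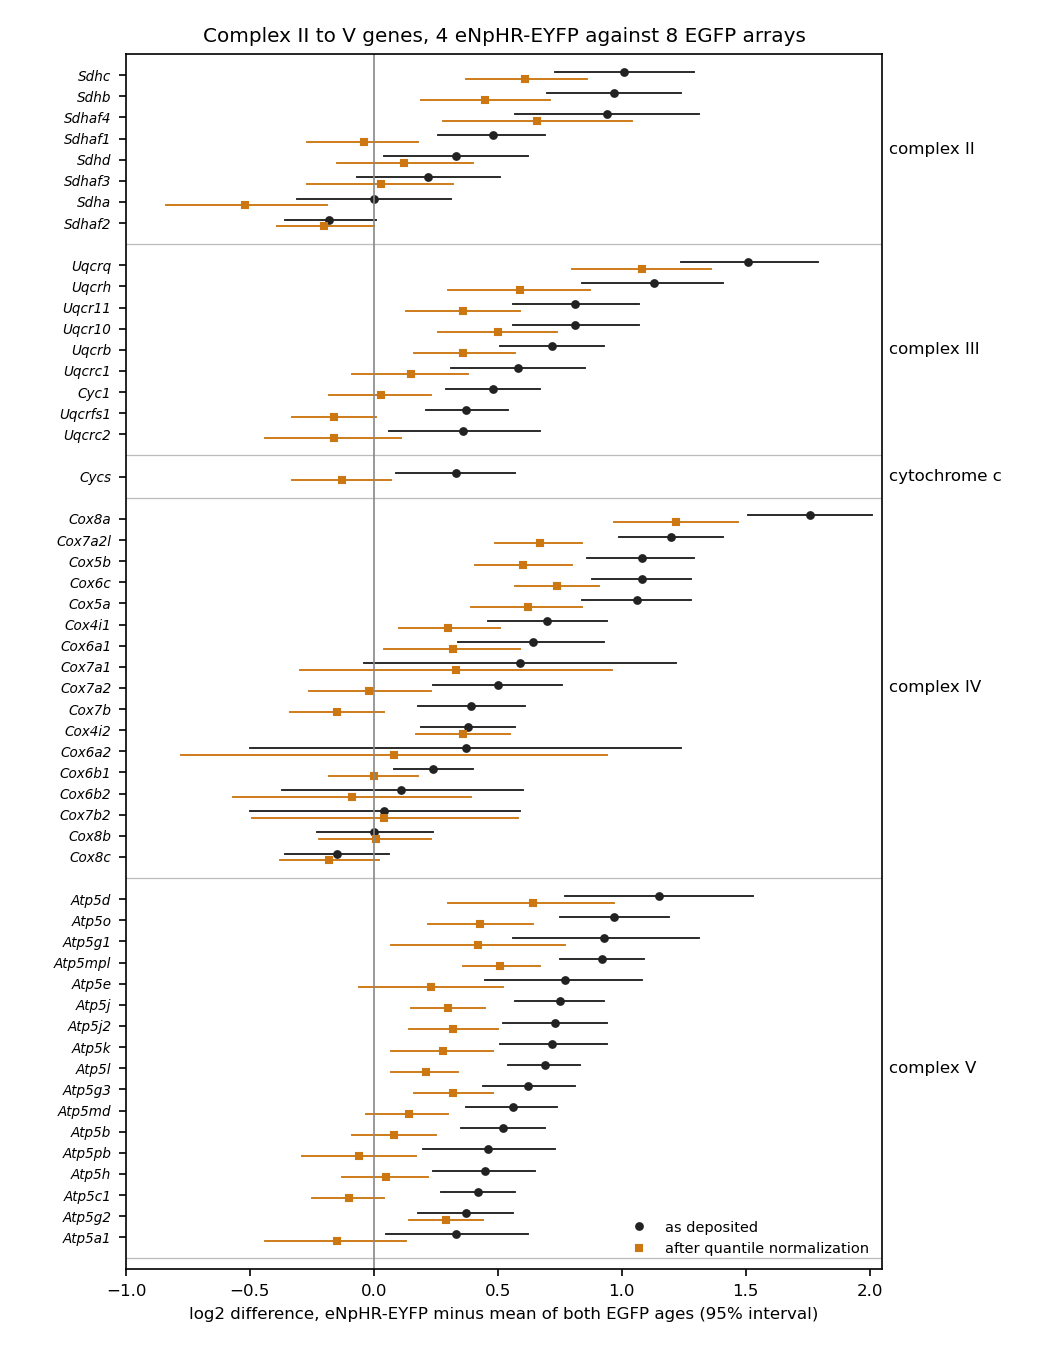
Log2 difference of each of the 52 members, eNpHR-EYFP minus EGFP averaged over both ages (4 against 8 arrays), grouped by complex; black circles are deposited values, orange squares quantile-normalized values, and lines are 95% intervals. Nearly all black circles lie right of 0, up to 1.76 for Cox8a, and the orange squares lie further left for most bright genes, down to -0.52 for Sdha.

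Signal level moved with these calls. Among all genes with a mean log2 intensity of 8 to 10, 69.2% were higher in eNpHR-EYFP on the deposited scale, and of the members in that range 19 of 20 were. After quantile normalization the shares there were 25.2% of all genes and 9 of 20 members. At 10 and above, 59% of all genes and 10 of 10 members were higher as deposited, and 23.1% and 6 of 10 after quantile normalization. Between 6 and 8 the deposited values gave 56.8% of all genes and 6 of 8 members, and quantile-normalized values gave 19.9% and 3 of 8. Between 4 and 6, 38.8% of all genes and 4 of 9 members were higher as deposited, and 20.7% and 4 of 9 after quantile normalization. Below 4 the shares were 16.2% and 14.7% of all genes and 1 of 5 members on either scale.

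**Figure D2:**
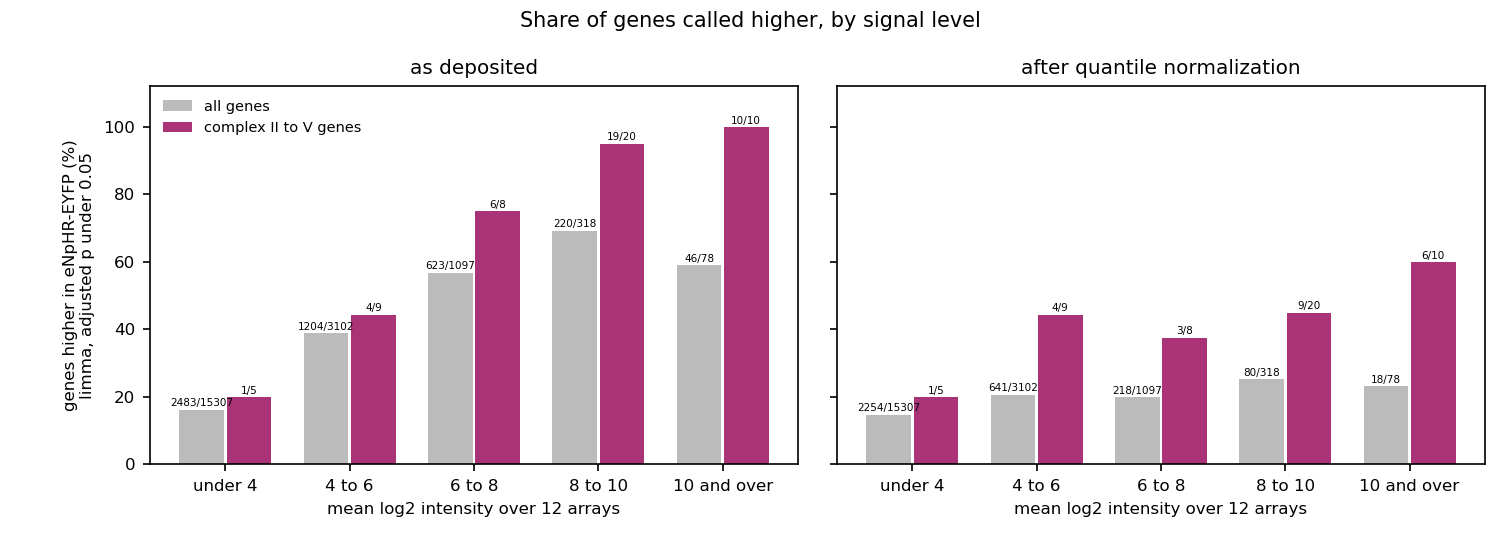
Percent of genes called higher in eNpHR-EYFP (limma, adjusted p under 0.05) by mean log2 intensity over the 12 arrays, for all genes (grey) and members (purple), with the counts above each bar. On the deposited scale the grey bars rise from 16.2% below a level of 4 to 69.2% at 8 to 10, and after quantile normalization they lie between 14.7% and 25.2%.

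In complex II the catalytic flavoprotein gene had other values than 2 of its partners. Sdhb, the iron-sulfur subunit, and Sdhc, a membrane anchor, were higher in eNpHR-EYFP on either scale, while Sdha, which carries the FAD cofactor and oxidises succinate, had a deposited difference of 0.00. After quantile normalization Sdha was the 1 member that was lower. Sdhd, the other membrane anchor, did not pass on either scale.

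Sdhb levels were 7.52, 7.62, 7.58 and 7.59 at 110 days, 7.89, 7.70, 7.45 and 7.44 at 220 days and 8.55, 8.60, 8.91 and 8.23 in eNpHR-EYFP. The groups did not overlap, and the log2 difference was 0.97 ± 0.12 (SE, 4 against 8 arrays, limma adjusted p = 0.00019) as deposited and 0.45 ± 0.12 (adjusted p = 0.0174) after quantile normalization, where the call ended without replicate 3 of eNpHR-EYFP (0.34, adjusted p = 0.0595). Sdhc levels were 5.32, 5.29, 5.30 and 5.21 at 110 days, 5.71, 5.69, 5.25 and 5.18 at 220 days and 6.54, 6.39, 6.55 and 6.05 in eNpHR-EYFP. Again every eNpHR-EYFP array lay above every EGFP array. Its difference was 1.01 ± 0.13 (limma adjusted p = 0.000184) and 0.61 ± 0.11 (adjusted p = 0.00257) after quantile normalization.

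Sdha levels were 7.89, 7.65, 6.99 and 7.61 at 110 days, 7.84, 7.70, 7.63 and 7.83 at 220 days and 7.70, 7.67, 7.73 and 7.47 in eNpHR-EYFP. Those of eNpHR-EYFP lay inside the EGFP range, in which replicate 3 at 110 days was the lowest. The deposited difference was 0.00 ± 0.14 with a 95% interval of -0.31 to 0.31, and the quantile-normalized one -0.52 ± 0.15 (limma adjusted p = 0.0245). With the 3 low-Arr3 EGFP arrays left out the quantile-normalized value was -0.37 (adjusted p = 0.0848), and with the mean of the cone markers as a covariate -0.30 (adjusted p = 0.113), so the call ended in both. It also ended without replicate 1 (adjusted p = 0.0555) or without replicate 4 (adjusted p = 0.0677) of eNpHR-EYFP. Nor did the call hold on lines in place only, where 0 of 17 members, Sdha among them, were lower after quantile normalization.

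A difference between 2 probes within an array does not depend on a shift that both share. Sdhb minus Sdha ran from -0.39 to 0.58 over the EGFP arrays and from 0.75 to 1.18 over the eNpHR-EYFP arrays, a mean difference of 0.97 on the deposited scale and again 0.97 after quantile normalization. Sdhc minus Sdha differed by 1.01 as deposited and 1.13 after quantile normalization, also without overlap. Sdhd minus Sdha differed by 0.33 and 0.64, with overlapping groups. These pairs were formed with values known and were not tested. A difference within an array shows unequal change and not which of the genes moved.

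Sdhd stood at 4.18 ± 0.29 (SD, n = 4) at 110 days, 4.19 ± 0.12 at 220 days and 4.51 ± 0.22 in eNpHR-EYFP, a difference of 0.33 ± 0.13 that missed the threshold (limma adjusted p = 0.0837). The remaining complex II members help to assemble it. Sdhaf4, which binds the FAD-loaded flavoprotein, was higher by 0.94 ± 0.17 as deposited and by 0.66 ± 0.17 after quantile normalization. Sdhaf1, which helps to place iron-sulfur clusters in Sdhb, was higher by 0.48 ± 0.10 as deposited and had -0.04 after quantile normalization. Sdhaf3 had a difference of 0.22 (limma adjusted p = 0.249). Sdhaf2, which attaches FAD to Sdha, had -0.18 (adjusted p = 0.14), and it fell by 0.25 (adjusted p = 0.0416) with the 3 low-Arr3 EGFP arrays left out.

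**Figure D3:**
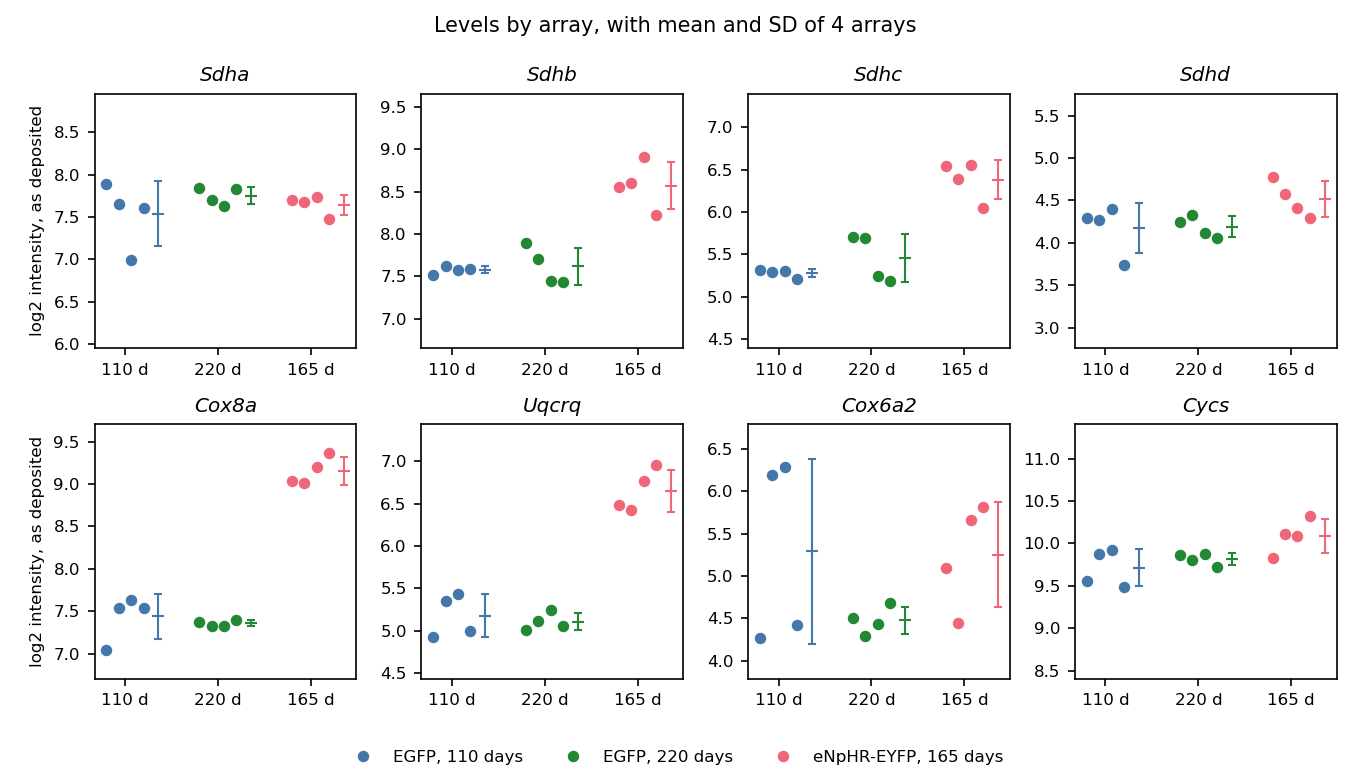
Log2 intensity as deposited on each array for the 4 complex II subunits, Cox8a, Uqcrq, Cox6a2 and Cycs, with EGFP at 110 days (blue), EGFP at 220 days (green) and eNpHR-EYFP at 165 days (red); bars are mean and SD of 4 arrays, and every panel spans 3 log2 units. Sdhb, Sdhc, Cox8a and Uqcrq show no overlap of eNpHR-EYFP with EGFP, Sdha shows full overlap, and Cox6a2 splits the 110-day arrays from 4.27 to 6.28.

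In complex III, 8 of 9 members were higher as deposited and 5 of 9 after quantile normalization. The 5 that held were the small accessory subunits Uqcrq, Uqcrh, Uqcrb, Uqcr10 and Uqcr11, with medians of 0.81 and 0.50. The 4 larger proteins were the core proteins Uqcrc1 and Uqcrc2, the Rieske iron-sulfur protein Uqcrfs1 and the cytochrome Cyc1. Of these, 3 were higher as deposited (median 0.42) and 0 after quantile normalization (median -0.07). This split by size was drawn after the values were seen and was not tested.

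Uqcrq, a small subunit near the ubiquinone site, had the largest difference of the complex. Its levels were 4.92, 5.35, 5.43 and 5.0 at 110 days, 5.01, 5.12, 5.24 and 5.06 at 220 days and 6.48, 6.42, 6.76 and 6.95 in eNpHR-EYFP. The groups lay about a log2 unit apart at their nearest values. Its difference was 1.51 ± 0.13 (2.86-fold, limma adjusted p = 1.54e-05) and 1.08 ± 0.13 (adjusted p = 0.000176) after quantile normalization. Uqcrh, the hinge protein that docks cytochrome c, was higher by 1.13 ± 0.13 and by 0.59 ± 0.13 after quantile normalization. Uqcrb was higher by 0.72 and 0.36, and Uqcr11 by 0.81 and 0.36. The quantile-normalized call of Uqcr11 ended without replicate 2, 3 or 4 of eNpHR-EYFP, with adjusted p from 0.068 to 0.0845.

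Among the larger proteins, Cyc1, the haem protein that passes electrons to cytochrome c, stood at 9.32 ± 0.16 at 110 days, 9.37 ± 0.11 at 220 days and 9.82 ± 0.09 in eNpHR-EYFP (SD, n = 4 each). It was higher by 0.48 ± 0.09 (limma adjusted p = 0.00186) as deposited, and the value was 0.03 after quantile normalization. Uqcrfs1 was higher by 0.37 as deposited and had -0.16 (limma adjusted p = 0.161) after quantile normalization. Uqcrc2 did not pass on either scale, with 0.36 (adjusted p = 0.0751) and -0.16 (adjusted p = 0.387).

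Cytochrome c itself, Cycs, carries electrons from complex III to complex IV. Its levels were 9.56, 9.88, 9.92 and 9.49 at 110 days, 9.86, 9.80, 9.87 and 9.72 at 220 days and 9.83, 10.11, 10.09 and 10.32 in eNpHR-EYFP, so that replicate 1 of eNpHR-EYFP lay within the EGFP range. The deposited difference of 0.33 ± 0.11 passed narrowly (limma adjusted p = 0.0455), and the call ended without any 1 of 9 of the 12 arrays, with an adjusted p of up to 0.134. It held without replicate 2 or 3 at 110 days and without replicate 1 of eNpHR-EYFP. After quantile normalization it was -0.13 (adjusted p = 0.325).

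Complex IV held the member with the largest difference, Cox8a, and 6 of the 12 members without a call. Its 10 widely expressed subunits were all higher as deposited (median 0.88), and 6 of 10 were higher after quantile normalization (median 0.46). Of the 7 isoforms known mainly from muscle, lung or testis, 1 was higher on either scale and 0 were lower. The isoform split was drawn after values were seen and was not tested.

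Cox8a, the widely expressed form of a small membrane subunit, stood at 7.04, 7.54, 7.63 and 7.54 at 110 days, 7.37, 7.33, 7.33 and 7.40 at 220 days and 9.04, 9.01, 9.20 and 9.37 in eNpHR-EYFP. The gap between the groups was wider than the whole range of either. Its difference was 1.76 ± 0.11 (3.39-fold, limma adjusted p = 3.81e-06) and 1.22 ± 0.11 (2.33-fold, adjusted p = 5.13e-05) after quantile normalization, the largest of the members on either scale. With the cone marker mean as a covariate these were 1.56 and 1.11, and with the 3 low-Arr3 EGFP arrays left out they were 1.69 and 1.18.

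Cox7a2l, which links complex III to complex IV in supercomplexes, was higher by 1.20 ± 0.10 (limma adjusted p = 1.22e-05) and by 0.67 ± 0.08 after quantile normalization. Its 8 EGFP arrays lay between 7.64 and 8.17 and the eNpHR-EYFP arrays between 9.0 and 9.13. Cox6c was higher by 1.08 and 0.74, Cox5b by 1.08 and 0.60, and Cox5a by 1.06 and 0.62. These 3 encode nuclear subunits that surround the catalytic core. Cox4i1, the common form of the regulatory subunit that binds ATP, was higher by 0.70 and 0.30, and its quantile-normalized call ended without any 1 of 9 arrays (adjusted p of up to 0.126).

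Read by their brightest probes, the other widely expressed subunits passed on the deposited scale alone. Cox6a1 was higher by 0.64 (limma adjusted p = 0.00467) and had 0.32 (adjusted p = 0.0863) after quantile normalization. Cox7a2 was higher by 0.50 and had -0.02, Cox7b by 0.39 and had -0.15, and Cox6b1 by 0.24 and had -0.00. The dimmer Cox7b probe was higher on either scale, by 0.94 and 0.44. The call of Cox6b1 ended without replicate 1 at 220 days and without replicate 1, 2 or 3 of eNpHR-EYFP (adjusted p of up to 0.0843). With the cone marker mean as a covariate the deposited calls of these 4 ended, with adjusted p from 0.0574 for Cox6a1 to 0.11 for Cox7b.

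Of the restricted isoforms, Cox4i2, the lung form, was the 1 that was higher, by 0.38 ± 0.09 (limma adjusted p = 0.00625) as deposited and 0.36 ± 0.09 (adjusted p = 0.0121) after quantile normalization. Its levels were low, from 2.51 to 3.04 with EGFP and from 3.0 to 3.17 with eNpHR-EYFP, and whether they stood above background is unknown. The muscle form Cox8b had a difference of 0.00 and the testis form Cox8c of -0.15 (limma adjusted p = 0.287). The mean level of Cox8b was 2.67 in each group, near the array medians, so it is not shown to be above background. The testis forms Cox6b2 and Cox7b2 had differences of 0.11 and 0.04.

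Cox6a2, a form known from heart and skeletal muscle, varied widely within groups. Its levels were 4.27, 6.19, 6.28 and 4.42 at 110 days, 4.51, 4.29, 4.43 and 4.68 at 220 days and 5.09, 4.45, 5.66 and 5.81 in eNpHR-EYFP. Both high arrays at 110 days were those high in Arr3 at that age, and both higher eNpHR-EYFP arrays were also the higher in Arr3, whereas the 220-day arrays were low in Cox6a2 at every Arr3 level. The difference was 0.37 ± 0.40 (limma adjusted p = 0.535), and with the cone marker mean as a covariate it was -0.64 (adjusted p = 0.0486). Cox7a1, its muscle partner, stood at 3.87, 4.04, 5.30 and 4.74 at 110 days, 4.52, 4.17, 3.69 and 4.13 at 220 days and 5.29, 5.32, 4.79 and 4.19 in eNpHR-EYFP. The arrays of each group spread widely and overlapped, and its difference was 0.59 ± 0.29 (limma adjusted p = 0.155).

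**Figure D4:**
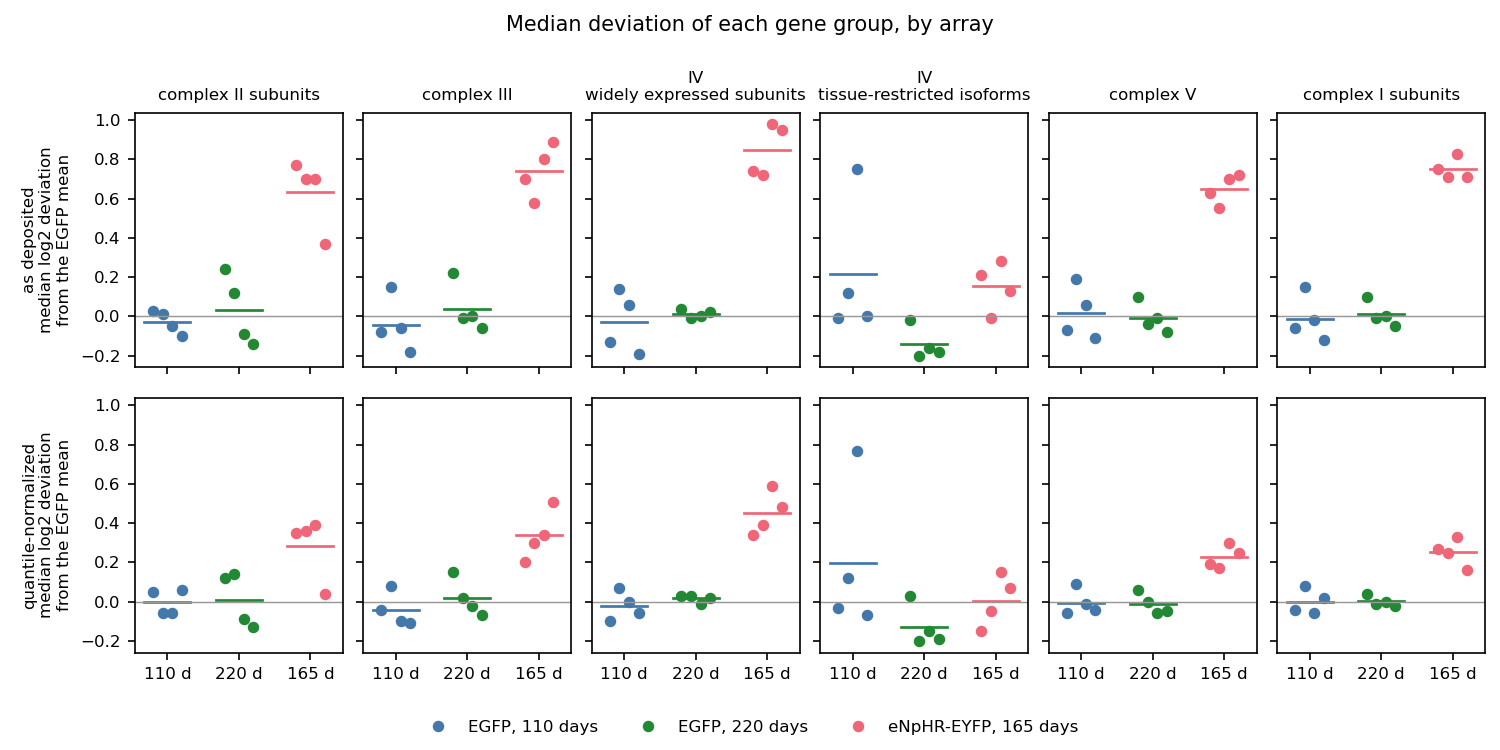
Median log2 deviation of the members of each gene group from their EGFP means, by array, on the deposited scale (top) and after quantile normalization (bottom); points are single arrays and lines the mean of 4. The eNpHR-EYFP points lie above all EGFP points in complexes III and V, the widely expressed complex IV subunits and complex I on either scale, and overlap EGFP in the tissue-restricted isoforms.

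In complex V nearly every member was higher as deposited. On that scale 16 of 17 members were called, with differences of 0.33 to 1.15 over the complex and a median of 0.69. After quantile normalization 8 of 17 were higher (median 0.28). Of the 5 F1 subunits, which form the catalytic head and central stalk, 4 were higher as deposited and 1 after quantile normalization. Of the 12 other members, which make up the membrane ring, the side stalk and smaller accessory parts, 12 and 7 were higher. That split was drawn after values were seen and was not tested.

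Atp5d, the delta subunit of the central stalk, was the F1 gene higher on either scale. Its levels were 8.25, 8.85, 8.16 and 7.74 at 110 days, 8.96, 8.61, 8.41 and 8.55 at 220 days and 9.65, 9.39, 9.72 and 9.60 in eNpHR-EYFP. The groups did not overlap, although the 110-day arrays spread by over a log2 unit. The difference was 1.15 ± 0.17 (limma adjusted p = 0.000586) and 0.64 ± 0.15 (adjusted p = 0.0105) after quantile normalization. Atp5c1, the gamma subunit that turns inside the head, was higher by 0.42 as deposited and had -0.10 after quantile normalization. Atp5a1, the alpha subunit, was the 1 member of complex V that did not pass, with 0.33 (limma adjusted p = 0.0759) and -0.15 (adjusted p = 0.439).

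In the membrane part, Atp5mpl, a small accessory protein, stood at 9.69, 9.84, 9.68 and 9.66 at 110 days, 9.58, 9.33, 9.49 and 9.62 at 220 days and 10.50, 10.41, 10.60 and 10.62 in eNpHR-EYFP. No EGFP array reached the lowest eNpHR-EYFP array, and the difference was 0.92 ± 0.08 (limma adjusted p = 1.73e-05) and 0.51 ± 0.07 (adjusted p = 0.000502) after quantile normalization. Atp5o, which couples the head to the side stalk, was higher by 0.97 and 0.43. Atp5j, a side stalk subunit, was higher by 0.75 and 0.30, and Atp5l, a membrane subunit at the dimer contact, by 0.69 and 0.21. The quantile-normalized call of Atp5l ended without any 1 of 8 arrays (adjusted p of up to 0.0933). Atp5k, another dimer subunit, was higher by 0.72 and had 0.28 (limma adjusted p = 0.0522) after quantile normalization.

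Atp5g1, Atp5g2 and Atp5g3 encode the same mature ring protein. Atp5g1 was higher by 0.93 ± 0.17 (limma adjusted p = 0.00197) as deposited and had 0.42 (adjusted p = 0.0752) after quantile normalization. Atp5g2 was higher by 0.37 and 0.29, and Atp5g3 by 0.62 and 0.32, on either scale. Differences between these genes within an array overlapped between EGFP and eNpHR-EYFP in all 3 pairs.

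Genes of this family have processed copies elsewhere in the genome, and a probe can read such a copy. For 14 members the array held several probes, 74 probes over all members. Of the 22 probes not used, 13 were higher as deposited and 1 was lower, where 23.0% and 10.1% of all genes were. After quantile normalization 4 were higher and 2 lower, where 16.1% and 12.4% of all genes were. On that scale the counts of these probes thus lay near the shares of all genes. The dimmer Atp5g1 probe was lower on either scale, with -0.55 against 0.93 for the brighter as deposited and -0.56 against 0.42 after quantile normalization. As deposited, Cox7b had 0.94 on its dimmer probe against 0.39, and Atp5md 1.12 and 0.09 against 0.56. Atp5pb had -0.03 against 0.46, and Cycs 0.64 and 0.89 against 0.33. After quantile normalization the dimmer Atp5pb probe was lower, with -0.50 against -0.06. The dimmer Cox7b probe was higher there, with 0.44 (limma adjusted p = 0.00395) against -0.15. Of the dimmer Atp5md probes, the one at a level of 9.11 was higher (0.65 against 0.14), and the one at 2.55 did not pass (0.08). Those 5 genes were singled out after their values were seen, and their values are uncertain for this reason. Other members were not free of this after quantile normalization. Dimmer probes did not pass in Cox6c (0.28 against 0.74), Uqcrb (0.11 and -0.18 against 0.36) and Cox7a2l (0.17 against 0.67). Nor did those of Atp5l (-0.25 to 0.07 against 0.21), Uqcr11 (0.44 against 0.36) and Sdhaf4 (0.49 against 0.66). The dimmer Cox5b probe (0.67 against 0.60) and the dimmest Atp5g2 probe (0.77 against 0.29, mean level 3.70) did pass. The other unused Atp5g2 probe, with a mean level of 7.01, did not pass after quantile normalization (0.19, limma adjusted p = 0.143).

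Against each EGFP age alone, which shares the eNpHR-EYFP arrays and so is no separate evidence, the counts were close. Against 110 days 38 members were higher as deposited, where 19.9% of all genes were, and 19 after quantile normalization, where 13.6% were. Against 220 days 38 were higher as deposited (17.8% of all genes) and 20 after quantile normalization (11.3%). Cox8a differed by 1.72 from 110 days and by 1.80 from 220 days, Uqcrq by 1.48 and 1.55, and Sdhb by 1.0 and 0.95. Sdha was 0.11 above 110 days and -0.11 from 220 days as deposited, and neither passed. After quantile normalization its difference was -0.44 from 110 days (limma adjusted p = 0.0927) and -0.59 from 220 days (adjusted p = 0.0329), the latter called lower.

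With age in EGFP cones, 0 of 52 members passed by limma in either direction on either scale, as did 0% of all genes. The median log2 difference of 220 minus 110 days was 0.02. At an unadjusted p under 0.05 there were 2 members as deposited, where 1221 of 19902 genes were, and 1 after quantile normalization. On the higher side at 220 days the members with the smallest p were Atp5c1 with 0.17 ± 0.08, Atp5d with 0.38 ± 0.20 and Uqcrfs1 with 0.15 ± 0.09. On the lower side they were Cox4i2 with -0.23 ± 0.10, Atp5mpl with -0.21 ± 0.09 and Atp5k with -0.22 ± 0.11 (SE, 4 against 4 arrays). Their limma adjusted p lay between 0.731 and 0.802.

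Other respiratory genes were taken from lists that were also chosen with earlier results known. Over all genes 23.0% were higher and 10.1% lower as deposited, and 16.1% and 12.4% after quantile normalization. Of 34 complex I subunits measured, 31 were higher as deposited (median 0.74) and 15 after quantile normalization (median 0.23), with 0 lower on either scale. Ndufa5, an accessory subunit, was higher by 1.54 and 1.04, Ndufa3 by 1.29 and 0.77, and Ndufa10 by 1.04 and 0.53. Of 32 assembly factors of complexes II to V, which include the 4 Sdhaf genes, 16 were higher as deposited. After quantile normalization 5 were higher, near the share of all genes, and 2 lower. Uqcc2, which stabilises newly made cytochrome b, was higher by 1.27 and 0.74, Cox19 by 1.22 and 0.77, and Cox14 by 1.09 and 0.59. The 2 lower ones were Ttc19, a complex III factor, with -0.54, and Coa5 with -0.23. Replicate 4 of eNpHR-EYFP stood at 4.47 in Ttc19 on the deposited scale, below every other array.

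A list of carriers that exchange ADP, ATP and phosphate across the mitochondrial membranes also held the pore genes Vdac1, Vdac2 and Vdac3 and the creatine kinase gene Ckmt1. Of its 8 genes, 7 were higher as deposited and 6 after quantile normalization, where 23.0% and 16.1% of all genes were. Vdac1, a pore of the outer membrane, was at 4.04, 4.17, 3.61 and 3.67 at 110 days, 4.22, 4.09, 4.06 and 4.17 at 220 days and 6.20, 5.78, 5.91 and 5.82 in eNpHR-EYFP. Its difference was 1.93 ± 0.12 (limma adjusted p = 3.38e-06) and 1.62 ± 0.11 (adjusted p = 1.07e-05) after quantile normalization, above that of every member. The phosphate carrier Slc25a3 was higher by 0.84 and 0.31, and the ADP/ATP carrier Slc25a4 by 0.60 and 0.21.

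Of 15 regulators of mitochondrial biogenesis, 4 were higher and 1 lower as deposited, where 23.0% and 10.1% of all genes were. After quantile normalization 2 were higher and 1 lower, where 16.1% and 12.4% of all genes were. As a list the regulators thus lay near the shares of all genes. Tfam, which packages and transcribes mitochondrial DNA, was higher by 0.96 ± 0.16 and 0.89 ± 0.17. Twnk, the mitochondrial DNA helicase, was higher by 0.43 on either scale, and Polg2, a subunit of its polymerase, by 0.72 as deposited alone. The coactivator gene Ppargc1a, the last of the 4, was higher by 1.13 as deposited and had 0.91 (limma adjusted p = 0.0896) after quantile normalization. Gabpb1, a subunit of the ETS factor GABP, was lower by 0.40 (limma adjusted p = 0.0467) as deposited and had -0.41 (adjusted p = 0.0426) after quantile normalization. Mean levels at 110 days, 220 days and in eNpHR-EYFP were 2.74, 2.72 and 3.69 for Tfam and 2.31, 2.32 and 2.74 for Twnk. For Gabpb1 they were 3.13, 3.04 and 2.69. The array medians were 2.722 to 2.828, so whether Tfam, Twnk and Gabpb1 stood above background is unknown. Nrf1 itself had 0.29 (limma adjusted p = 0.0772) and Gabpa 0.03 (adjusted p = 0.736). Members with NRF1 letters in the promoter window had a median difference of 0.66 as deposited and 0.28 after quantile normalization, and those without had 0.54 and 0.13. For ETS letters these were 0.66 and 0.22 with, and 0.55 and 0.22 without. The 3 members with Crx letters had 0.94 and 0.66, and those without had 0.58 and 0.21. For YY1 letters the medians were 0.73 and 0.30 with, and 0.58 and 0.21 without. For the letters of the estrogen-related receptors they were 0.62 and 0.21 with, and 0.58 and 0.23 without. These splits were not tested.

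Cell type markers moved beside these values. The summed intensity of the 19 cone markers measured was 826 to 8286 at 110 days, 2335 to 4695 at 220 days and 4475 to 13128 in eNpHR-EYFP, with 6 markers higher and 2 lower as deposited. For the 11 rod markers the sums were 807 to 2079, 738 to 1407 and 1133 to 2692 (2 higher, 1 lower), and for the 12 Müller glia markers 847 to 1621, 1252 to 1524 and 1678 to 3959 (2 higher, 0 lower). The sums of 11 bipolar cell markers were 531 to 1019, 645 to 1387 and 481 to 1053, and of 11 amacrine cell markers 244 to 390, 340 to 627 and 294 to 583. Those of 9 ganglion cell markers were 75 to 81, 81 to 91 and 117 to 138. The sums of the Müller glia and ganglion cell markers in eNpHR-EYFP lay above all those in EGFP. The sums of 10 muscle markers ran the other way without overlap, with 85 to 92, 86 to 105 and 78 to 83. The median probe of an array had an intensity of 6.6 to 7.1. The muscle sums, and the ganglion cell sums in EGFP, therefore lie near the floor for lists of 10 and 9 markers. The sums of 5 horizontal cell markers were 43 to 57 at 110 days, 44 to 56 at 220 days and 43 to 118 in eNpHR-EYFP. For 10 pigment epithelium markers they were 81 to 165, 149 to 201 and 134 to 470. Those of 12 microglia markers were 70 to 87, 67 to 72 and 81 to 90, also near the floor. Higher and lower calls as deposited numbered 1 and 1 for bipolar, 3 and 0 for amacrine and 4 and 0 for ganglion markers. They were 1 and 1 for horizontal, 5 and 1 for microglia, 2 and 0 for pigment epithelium and 4 and 3 for muscle markers. After quantile normalization the numbers were 4 and 2 for cone, 0 and 1 for rod and 2 and 1 for Müller glia markers. Bipolar markers then had 1 and 2, amacrine 2 and 1, ganglion 2 and 0, and horizontal 1 and 1. Microglia markers had 3 and 1, pigment epithelium 1 and 1, and muscle 4 and 3. Over all genes 23.0% were higher and 10.1% lower as deposited, and 16.1% and 12.4% after quantile normalization. Whether dim markers stood above background is unknown, and the part of glia, ganglion or other cells in the members' differences was not tested. For cones, 30 members were higher with the cone marker mean as a covariate and 37 with the 3 low-Arr3 EGFP arrays left out, and after quantile normalization 18 and 19 were. The shares of all genes called under these settings are not given, so these counts cannot be set against other genes.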

How the data were processed

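RNA from sorted cones was measured on Affymetrix arrays, and RMA and the affy package are named in the submitters' processing notes, without versions. The deposited values are linear intensity values from the authors, taken to log2 here. Per the file's own columns, the EGFP values (34729) are fewer than the eNpHR-EYFP values (34760) and slip against the probe identifiers. They were realigned by level (t distribution with 3 degrees of freedom and scale 0.25, probability 0.001 per lost line, posterior at least 0.999). This moved 21031 lines (60.56%), left 114 out as ambiguous and 34615 tested, and raised the median correlation of EGFP with eNpHR-EYFP arrays from 0.421 to 0.9442. The repair therefore uses the eNpHR-EYFP values, and 13584 probes needed none.

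Of the probes, 21640 name 1 gene, 1321 several and 11799 none in the platform annotation. Of the 1-gene probes 21553 matched RefSeq and 0 symbols changed.

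All 12 arrays entered 1 limma fit (3.58.1, R 4.3.3, Python 3.11.15) with a mean per group, moderated variance and Benjamini-Hochberg adjustment over all tested probes. P-values measure the spread between these arrays. Both the alignment and the fit were tested on simulated data. The replicate numbers were not used as pairs: residuals of same-numbered arrays correlated from -0.0387 to 0.143.

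Members, lists and the shift were known from earlier results of these data. Named were the up to 4 members per complex with the smallest p, all that were lower or did not pass, fixed isoforms and core subunits, the 3 with the smallest p per direction with age, and the up to 3 per direction in each other list. Alternatives changed the normalization, samples, block, prior, filter, probe rule, repair, cone covariate and arrays.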

Additional observations from a re-analysis of the deposited data

Results flagged for a closer look

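Among the 132 groups of 4 arrays of the 44 named members, 6 held an array that stood apart from the other 3 by Dixon's test, where chance gives about 1 in 20 groups. On the deposited log2 scale, Cox8a stood at 7.04 on replicate 1 of EGFP at 110 days, against 7.54 to 7.63 on the others, and that array was also the lowest in Arr3 (4.58). Uqcrh stood at 9.50 on replicate 4 of eNpHR-EYFP, against 9.11 to 9.14. Cox6b2 stood at 4.57 on replicate 1 of EGFP at 220 days, against 3.83 to 3.94. Atp5a1 stood at 9.42 on replicate 4 of EGFP at 220 days, against 9.18 to 9.20, and Cox7a2l at 7.91 on the same array, against 7.87 to 7.88. Atp5l stood at 9.66 on replicate 1 of eNpHR-EYFP, against 9.73 to 9.74.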

How the results depend on the processing

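Quantile normalization moved the counts most among the alternatives run: members higher in eNpHR-EYFP went from 40 to 23, from 38 to 19 against 110 days and from 38 to 20 against 220 days, with 1 lower (Sdha) over both ages and 1 against 220 days. Members above 0 went from 50 to 38. Among them it turned the sign of Atp5a1 (-0.15), Atp5pb (-0.06), Cox6b2 (-0.09), Uqcrc2 (-0.16), Atp5c1 (-0.10), Cox6b1 (-0.00), Cox7a2 (-0.02), Cox7b (-0.15), Cycs (-0.13), Sdhaf1 (-0.04), Uqcrfs1 (-0.16) and Sdha (0.00 to -0.52), and took Cyc1 to 0.03. The cause was not tested. With the cone marker mean as a covariate 30 were higher (28 against 110 days, 31 against 220 days) and 2 lower (Cox6a2, reversed to -0.64, and Sdhaf2), with 1 lower against 110 days (Cox6a2) and 1 against 220 days (Sdhaf2). With the 3 low-Arr3 EGFP arrays left out, 37 were higher (27 against 110 days, 36 against 220 days) and 1 lower (Sdhaf2). Fitting only the compared groups made 1 lower against 220 days (Sdhaf2, -0.26). After quantile normalization the lower members were 2 with the cone covariate (Cox6a2, Sdhaf2), 2 when all probes of a gene were averaged (Sdha, Atp5pb) and 0 of 17 on lines in place. Sdha is among those 17. Leaving out single arrays gave 38 to 41 higher over both ages, 35 to 39 against 110 days, 33 to 38 against 220 days and 0 with age, and after quantile normalization 18 to 24 higher and 0 to 1 lower, with 0 without replicate 1 or 4 of eNpHR-EYFP. The replicate block gave 40, 38, 36 and 0, and 21 after quantile normalization. It is no pairing, as different-numbered arrays correlated from -0.178 to 0.123. Median centring gave 39, a trended robust prior 40, the filter at the median level 40 of 50, the mean of probes 37, lines in place 15 of 17 and an alignment scale of 0.5 gave 40. Quantile normalization without the 3 low-Arr3 arrays was chosen after seeing the data and gave 19 higher and 1 lower (Sdhaf2). Signal over background is unknown for dim probes. Apart from quantile normalization, the shares of all genes called under these alternatives are not given, so the counts describe the members alone.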
